A study of Rattus norvegicus with 6 samples.

Results

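The calcitonin receptor family comprises 5 genes among the 25629 measured: the receptors Calcr and Calcrl and the receptor activity-modifying proteins Ramp1, Ramp2 and Ramp3. Members were taken by gene symbol, and each symbol matched 1 row of the count matrices. The family was chosen by Calcr's naloxone-to-saline difference in these libraries, together with where its members are expressed. For Calcr that difference, and for all 5 genes the levels across cell classes, are therefore given as descriptions without a test. Tests are given for naloxone in the other 4 members, for sex, and for what nuclei with and without Calcr RNA otherwise differ in.

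The data are single-nucleus RNA counts from the nucleus accumbens, a ventral striatal region, of Sprague-Dawley rats aged 90 to 120 days. All rats of both groups took heroin by self-administration over 14 days, at first with 1 response per infusion and later with 3, with a progressive ratio test on day 12. After the last session they received either saline or naloxone, which blocks opioid receptors, and were killed 1 hour later; no heroin-free group and no naloxone dose is given in the sources used here. Tissue of 12 rats, 6 male and 6 female, was combined into 6 libraries that each hold both sexes: 3 saline libraries (replicates 1 to 3) and 3 naloxone libraries (replicates 4 to 6). How many rats of each sex entered a library is not stated, so p-values measure the spread between pooled libraries.

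Calcr encodes the calcitonin receptor, a receptor of the secretin type that couples mainly to Gs and raises cyclic AMP. Bound to a RAMP it becomes an amylin receptor, the form studied in the accumbens and hindbrain for its part in feeding. Calcrl cannot work alone: with Ramp1 it forms the receptor for calcitonin gene-related peptide, and with Ramp2 or Ramp3 a receptor for adrenomedullin, best known from blood vessels.

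Calcr and Calcrl are close relatives whose highest levels lay in different classes of nuclei here, so the sequence upstream of each start is shown for reference. The 250 bases before the annotated start come from RefSeq (build GRCr8), lie on the minus strand at chr4:32691076-32691325 for Calcr and at chr3:89932617-89932866 for Calcrl, and run 5′ to 3′. Capitals mark TGACG, the core letters of the cyclic AMP response element, searched on both strands.

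Calcr: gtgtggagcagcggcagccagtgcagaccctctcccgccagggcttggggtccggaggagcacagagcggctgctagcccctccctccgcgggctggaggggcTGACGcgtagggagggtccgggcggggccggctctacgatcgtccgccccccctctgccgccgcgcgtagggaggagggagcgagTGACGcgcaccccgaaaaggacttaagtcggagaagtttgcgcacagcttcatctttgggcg
Calcrl: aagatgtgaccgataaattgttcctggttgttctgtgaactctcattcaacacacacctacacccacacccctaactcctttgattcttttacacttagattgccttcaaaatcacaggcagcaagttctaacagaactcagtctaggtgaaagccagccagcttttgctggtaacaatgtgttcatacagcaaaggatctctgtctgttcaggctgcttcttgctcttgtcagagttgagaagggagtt

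The Calcr window held 2 matches to TGACG, was 70.0% G or C and had 25 CpG steps. The Calcrl window held 0 matches, was 43.6% G or C and had 1 CpG step. Among 33469 promoter windows of this length, 18.2% held at least 1 match, 3.98% at least 2, and the median was 51.2% G or C. The windows of Ramp1 and Ramp3 held 0 matches, and 4 of the 5 members had an entry. A match describes the letters only.

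The files held 64260 barcodes and 55739350 to 76272798 unique molecular identifiers (UMIs, counted molecules) per library, against 44592 nuclei stated in the labels. After filters and removal of called doublets, 58847 nuclei remained, with 371866491 UMIs. Clustering without the 5 members gave 55 clusters: 23 passed the marker gates for a named cell class, 14 carried markers of several classes and were set aside, and 18 stayed unnamed and are called by their leading gene. Levels were compared over 32 classes, 15 named and 17 unnamed. Naloxone replicate 5 had the highest median mitochondrial share (0.568%, against 0.154% to 0.347% in the others), and the set-aside mixed clusters held 17.6% ± 5.55 (SD, n = 6) of the Calcr UMIs. Pairs of libraries shared 19 to 45 barcode sequences.

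Calcr was concentrated in indirect-pathway spiny neurons, marked by Drd2, Adora2a, Penk and Gpr6. A Calcr UMI was found in 3882 of all used nuclei, or 6.60%, and these held 20572 Calcr UMIs. Drd2 spiny neuron-like nuclei made up 8.78% ± 1.53 of nuclei and carried 53.3% ± 6.75 of the Calcr UMIs. Their level, as Calcr UMIs per 1000000 UMIs of the class (CPM), averaged 236 ± 94.0 (SD, n = 6 libraries), against 55.4 ± 17.5 over all nuclei.

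**Figure D1:**
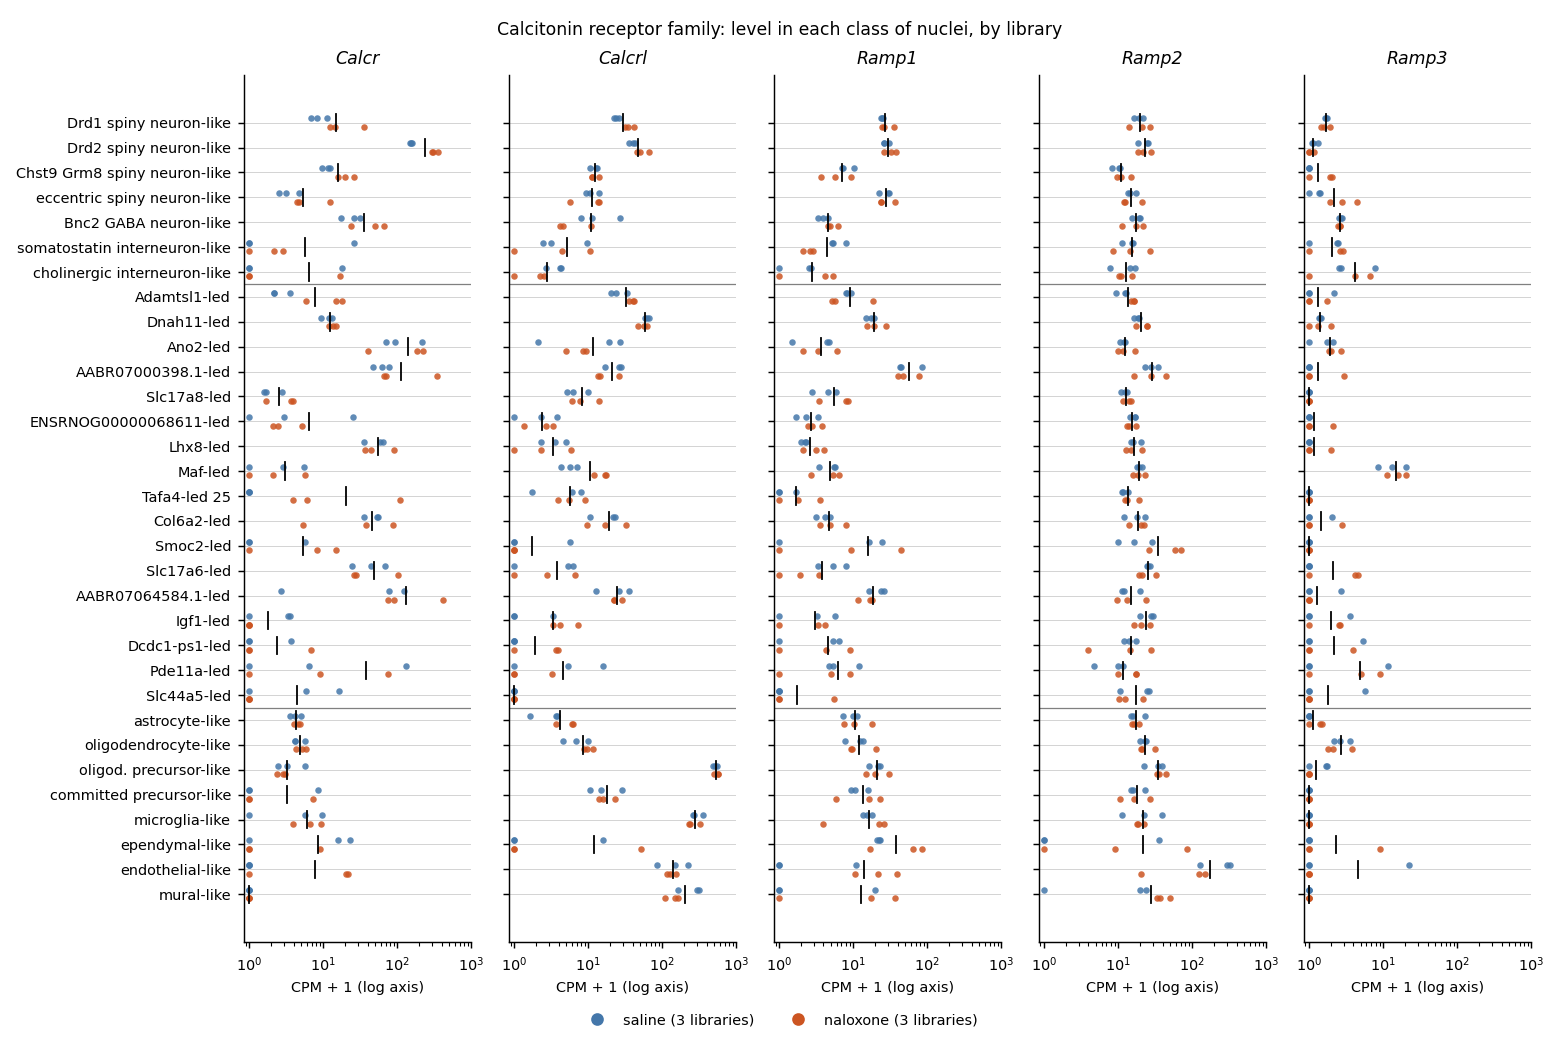
Level of each member in 32 classes of nuclei, as CPM + 1 on a log axis, 1 point per library (saline or naloxone) with a vertical line at the mean of 6 libraries. Calcr is highest in the Drd2 spiny neuron-like class (mean 236 CPM) and Calcrl in the oligodendrocyte precursor-like class (mean 533 CPM).

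Next in the order came 3 unnamed clusters whose libraries varied widely. The cluster led by Ano2, a calcium-activated chloride channel gene, averaged 138 ± 80.5 CPM and lay below the Drd2 class in 5 of 6 libraries, a gap within its spread. The clusters led by AABR07064584.1 and AABR07000398.1 averaged 131 ± 147 and 111 ± 116 CPM, and in both naloxone replicate 5 stood far above the rest, at 419 and 347 CPM. The AABR07000398.1-led nuclei were shallow, with a median of 1545 UMIs, and carried markers of several kinds of cell. They were enriched for the Drd2 class markers Adora2a, Penk and Gpr6 but not for Drd2, together with Drd1 and Pdyn. The astrocyte markers Aqp4 and Gja1 were enriched as well, and the leading genes included the mitochondrial Mt-nd4 and Mt-nd5. Neighbours among these clusters did not differ beyond their spread. Lower levels followed in the Lhx8-led (54.1 ± 20.9), Slc17a6-led (48.1 ± 31.1) and Col6a2-led (45.1 ± 27.6) clusters and in Bnc2 GABA neuron-like nuclei (34.8 ± 18.5). A Tafa4-led cluster of 38 nuclei, with as few as 2 in a library, was too small to enter this order. It held 0.571% ± 0.490 of the Calcr UMIs in 0.0660% of nuclei.

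The direct-pathway spiny neurons, which express Drd1, had little Calcr, at 13.8 ± 10.5 CPM, and the Chst9 Grm8 spiny neuron-like class had 14.9 ± 6.04 CPM. Glia lay lower, with 3.93 ± 0.774 CPM in oligodendrocyte-like, 3.37 ± 0.544 in astrocyte-like and 2.29 ± 1.22 in oligodendrocyte precursor-like nuclei. Ependymal-like and microglia-like nuclei averaged 7.56 and 5.05 CPM. In mural-like nuclei 0 of 185 held a Calcr UMI, which allows a share of up to 1.62%. Within the Drd2 class Calcr also varied between its 3 clusters. The Oprd1-led cluster averaged 275 ± 106 CPM and the Lrpl1-led cluster 238 ± 107, but the Itga11-led cluster, which expresses Drd2, Adora2a and Gpr6, held 9 Calcr UMIs in 428 nuclei (2.03 ± 4.04 CPM).

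Calcr was higher after naloxone in Drd2 spiny neuron-like nuclei. The saline libraries stood at 147, 151 and 160.1 CPM and the naloxone libraries at 361, 295 and 301 CPM. Every naloxone library lay above every saline library, and the ratio of the group means, 319 ± 36.4 against 153 ± 6.64 (SD, n = 3 each), was 1.06 on the log2 scale. In all nuclei together the levels were 37.8, 42.6 and 39.2 CPM in saline and 77.9, 69.4 and 65.2 in naloxone, again without overlap. The level over all nuclei also depends on how many of them are Drd2 spiny neuron-like, which was 10.1%, 10.1% and 9.06% in saline and 6.61%, 9.76% and 7.15% in naloxone, with overlap. Of the 12543 genes tested in the Drd2 class, 7.60% had every naloxone library above every saline library; in all nuclei this share was 11.5%.

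**Figure D2:**
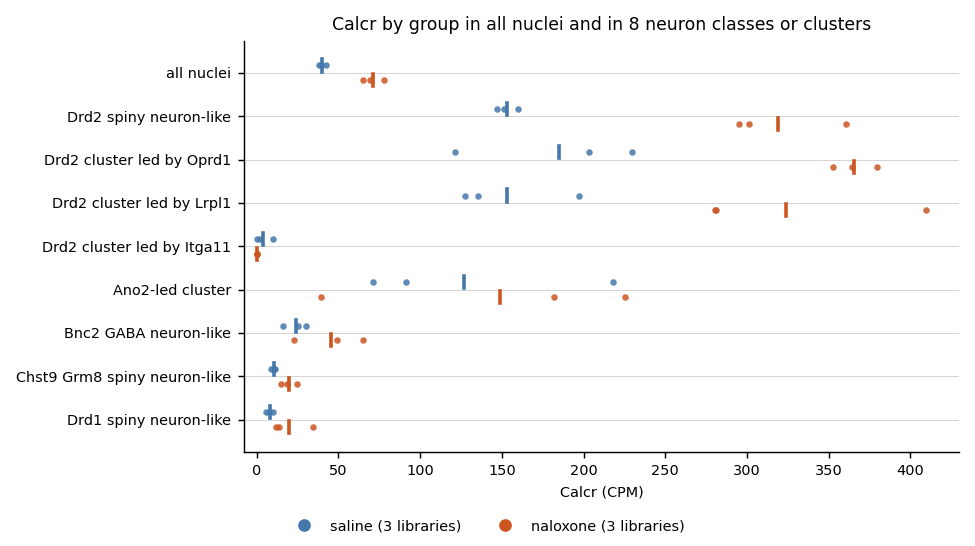
Calcr level in CPM in all nuclei and in 8 neuron classes or clusters, 1 point per library, with a vertical line at each group's mean of 3 libraries. Naloxone and saline points do not overlap in all nuclei, the Drd2 class, its Oprd1-led and Lrpl1-led clusters, and the Chst9 Grm8 and Drd1 classes.

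Both Calcr-bearing Drd2 clusters showed the difference. The Oprd1-led cluster had 121, 204 and 230 CPM in saline (mean 185 ± 56.6) and 364, 352 and 379 in naloxone (365 ± 13.4). In the Lrpl1-led cluster the saline libraries had 197, 135 and 127 CPM and the naloxone libraries 409.7, 281 and 281. The groups were apart in each cluster, which is a description, since Calcr was chosen for its naloxone difference. The share of all genes with groups apart is not given for these clusters. The clusters' shares of the Drd2 class hardly moved: the Lrpl1-led cluster held 46.0% ± 3.87 in saline and 46.4% ± 4.50 in naloxone, and the Oprd1-led cluster 45.6% ± 4.74 and 45.2% ± 2.68.

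Calcr passed the filter on low counts in 12 of 29 class fits, and in 3 of them every naloxone library was above every saline library, against 0 the other way. In the 29 fits together, 6.13% of gene-by-class pairs had every naloxone library higher and 7.78% had every one lower. Besides the Drd2 class they were the Drd1 class, with 7.34, 10.2 and 5.87 CPM in saline and 34.6, 13.3 and 11.6 in naloxone, and the Chst9 Grm8 class, with 10.7, 11.4 and 8.68 against 15.1, 24.9 and 18.7. In the Drd1 class naloxone replicate 4 was far above the other libraries, and 2 nuclei of at least 20 Calcr UMIs gave 59.2% of its Calcr UMIs. Without nuclei of that kind the Drd1 naloxone libraries had 14.1, 13.3 and 6.44 CPM, and the groups overlapped, as they did with each nucleus counted up to 20 UMIs (19.4, 13.3 and 9.84). In the Chst9 Grm8 class the groups stayed apart under both settings. The groups overlapped in Bnc2 GABA neuron-like nuclei (23.9 ± 7.03 against 45.6 ± 21.2) and in the Ano2-led cluster, where saline gave 91.5, 70.9 and 218 CPM and naloxone 182, 39.4 and 226. The Ano2-led cluster itself ranged from 85 to 441 nuclei per library.

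More Drd2 spiny neuron-like nuclei carried Calcr after naloxone, and those that did carried more of it. A Calcr UMI was seen in 25.4%, 26.7% and 28.4% of these nuclei in saline and in 38.3%, 31.3% and 34.4% in naloxone, at median depths of 6875 to 11366 and 7737 to 13792 UMIs per nucleus. After thinning each nucleus to 1000 UMIs, which left out none of them, the shares were 10.8% ± 0.444 and 16.5% ± 2.42 (SD, n = 3), without overlap. As a measure of free RNA, 0.918% ± 0.272 of astrocyte-like nuclei held a Calcr UMI at a median depth of 2453 UMIs, or 0.328% ± 0.167 after thinning, which left out 4.98% of them. Per Calcr-positive nucleus the mean was 5.26 UMIs in saline and 9.25 in naloxone.

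Nuclei with many Calcr UMIs were more frequent in every naloxone library than in any saline library. Nuclei with at least 20 Calcr UMIs made up 0.260%, 0.219% and 1.73% of the Drd2 class in saline and 2.95%, 2.16% and 6.00% in naloxone. These were 2, 3 and 14 nuclei in saline and 20, 22 and 34 in naloxone, and they gave 5.04% to 25.2% of the Calcr UMIs in saline libraries and 33.3% to 63.7% in naloxone libraries. Without them the level was 135 ± 11.7 CPM in saline and 185 ± 61.0 in naloxone, and the groups overlapped because naloxone replicate 6 fell to 118 CPM. With each nucleus counted up to 20 UMIs the groups stayed apart, at 148 ± 3.26 and 249 ± 52.8 CPM.

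**Figure D3:**
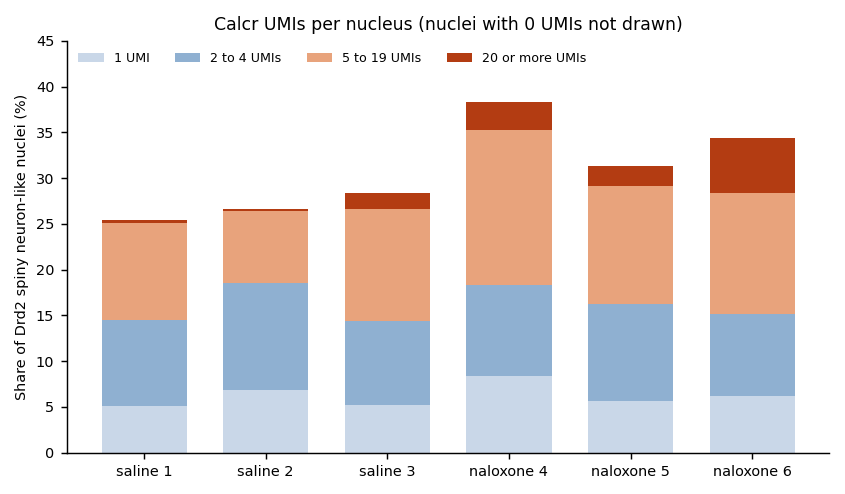
Share of Drd2 spiny neuron-like nuclei in each library that held 1, 2 to 4, 5 to 19, or 20 or more Calcr UMIs, as stacked bars; nuclei with 0 UMIs are not drawn. The share with 20 or more is 0.219% to 1.73% in the saline libraries and 2.16% to 6.00% in the naloxone libraries.

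Drd2 spiny neuron-like nuclei were split further into 11 sub-clusters, made without the family, the pathway lists and 1667 genes at an unadjusted p under 0.05 for naloxone in this class. Mean Calcr ran from 2.08 ± 3.26 CPM in the Alk-led to 3022 ± 937 CPM in the Cdc14a-led sub-cluster. The sub-clusters described next were picked with these values known. They divide a difference for which Calcr was chosen, and how many other genes had groups apart in them was not counted.

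The Cdc14a-led sub-cluster was tiny, 54 nuclei in all and 2 to 15 per library, with a median of 5201 UMIs. Its Calcr stood at 2416, 2333 and 2129 CPM in saline and 4542, 3683 and 3028 in naloxone, without overlap. Calcrl was counted in 0 of the 54, which allows a share of up to 5.56%. The Nr4a3-led sub-cluster, 143 nuclei led by Nr4a3, Nts, Pcsk1, Fosl2, Nr4a1 and Fosb, several of which are induced by neuronal activity, gave 119, 243 and 540.0 CPM in saline and 706, 1968 and 1344 in naloxone. Its Calcr groups did not overlap, while its share of the class did, at 1.97% ± 0.452 and 3.85% ± 1.71.

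The Col14a1-led sub-cluster (565 nuclei) had 424, 334 and 371 CPM in saline and 817, 549 and 431 in naloxone. It also took a larger share of the class after naloxone, 8.59%, 9.11% and 10.6% against 14.2%, 10.9% and 14.3%. The Rgs6-led sub-cluster averaged 181 ± 66.1 CPM in saline and 448 ± 118 in naloxone, and the Adra1a-led one 414 ± 61.3 and 531 ± 37.4, both without overlap. In the Dkk2-led, Eya2-led, AC125757.1-led, Shisa6-led, Frem2-led and Alk-led sub-clusters the groups overlapped. Of the class difference of 166 CPM, the Nr4a3-led nuclei carried 28.7%, the Col14a1-led 23.8%, the Cdc14a-led 19.6%, the Rgs6-led 13.0% and the Adra1a-led 10.0%. These parts rest on single libraries: without naloxone replicate 4 the first 3 were 46.0%, 14.0% and 12.5%, and with each library left out in turn the Rgs6-led part ran from 8.61% to 18.4% and the Adra1a-led part from 6.70% to 12.6%.

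**Figure D4:**
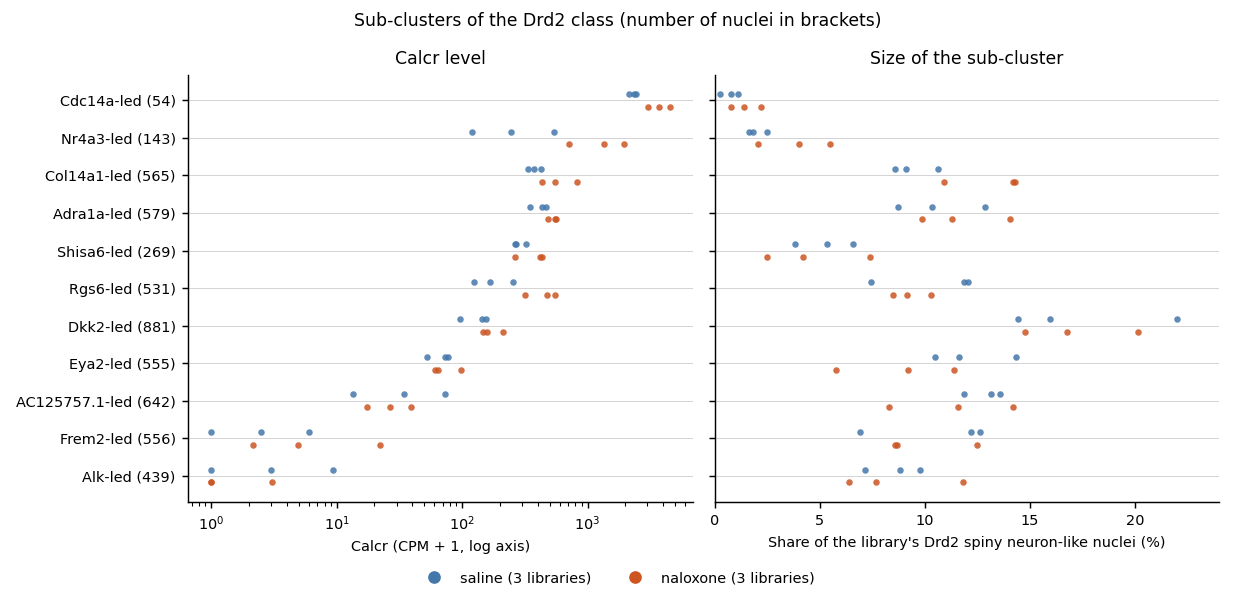
Left, Calcr level (CPM + 1, log axis) in 11 sub-clusters of the Drd2 class, 1 point per library; right, each sub-cluster's share of the library's Drd2 spiny neuron-like nuclei in percent. Naloxone points lie above all saline points for Calcr in the Cdc14a-led, Nr4a3-led, Col14a1-led, Adra1a-led and Rgs6-led sub-clusters, and for share in the Col14a1-led one.

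The receptors were not spread alike over these sub-clusters. Calcrl was highest in the Adra1a-led (124 ± 25.8 CPM), Nr4a3-led (115 ± 37.5) and Eya2-led (86.9 ± 19.8) sub-clusters. It was 16.5 ± 8.17 CPM in the Col14a1-led one, where Calcr was 488 ± 177. The Frem2-led sub-cluster showed the reverse, with Calcr at 5.46 ± 7.91 and Calcrl at 38.9 ± 16.5 CPM, and the Alk-led one had little of either.

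Because each library pooled the sexes, nuclei were sorted by Xist and Y-linked RNA and compared within libraries. Nuclei with neither or both, 2023 to 4159 per library, were left out. No member passed in all nuclei, where 0.0956% of genes did. For Calcr the fitted log2 difference was -0.02 ± 0.25 (SE; edgeR quasi-likelihood test, adjusted p = 0.990), and in the Drd2 class -0.01 ± 0.22 (adjusted p = 0.9996). None of 31 member-by-class tests in 18 class fits passed at an adjusted p under 0.05, against 0.114% of all gene-by-class tests; 3 had an unadjusted p under 0.05, where the share over all genes was 4.98%. These were Calcr in Bnc2 GABA neuron-like nuclei (log2 difference 0.99, female higher, adjusted p = 0.532), Calcrl in microglia-like nuclei (0.63, adjusted p = 0.552) and Ramp2 in oligodendrocyte precursor-like nuclei (0.48, adjusted p = 0.915).

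Calcr in the Drd2 class is also given for each sex. In female nuclei the saline libraries had 126, 130.2 and 255 CPM and the naloxone libraries 454, 304 and 170.4, so the groups overlapped. In male nuclei they had 167, 182 and 118 against 323, 241 and 388 CPM, without overlap. Female nuclei of naloxone replicate 6 lay below those of saline replicate 3. Whether the sexes differ in the naloxone difference was not tested.

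Calcrl marked oligodendrocyte precursors, microglia and vessels. It was detected in 7405 nuclei (12.6%), with 14389 UMIs. Oligodendrocyte precursor-like nuclei, marked by Pdgfra, Cspg4 and Vcan, were 3.74% of nuclei and held 27.8% ± 4.67 of the Calcrl UMIs. Their libraries stood at 522, 488 and 556 CPM in saline and 569, 498 and 563 in naloxone (mean 533 ± 34.9), a narrow range in which the groups overlapped.

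Microglia-like nuclei followed with 279 ± 48.8 CPM, below the precursors in 6 of 6 libraries and beyond the spread. The step from precursors to the next stage of the lineage was steep, since committed precursor-like nuclei had 16.8 ± 6.60 CPM and oligodendrocyte-like nuclei 7.61 ± 2.50. Mural-like nuclei averaged 201 ± 86.5 and endothelial-like nuclei 141 ± 45.6 CPM, on 50 and 75 UMIs. Microglia, mural and endothelial neighbours did not differ beyond their spread. Among neurons Calcrl was highest in the Dnah11-led cluster (58.6 ± 6.97) and the Drd2 class (46.3 ± 10.5), where the Oprd1-led cluster had 81.9 ± 15.2 and the Lrpl1-led cluster 22.1 ± 6.12 CPM.

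Calcrl was tested for naloxone in 17 of 29 class fits and passed in none. Its lowest adjusted p was 0.102, in Drd1 spiny neuron-like nuclei (0.227% of genes passed there), where saline libraries had 25.2, 21.5 and 23.0 CPM and naloxone libraries 33.8, 30.3 and 40.8. The groups did not overlap there, and the fitted log2 difference was 0.59 ± 0.13 (edgeR). DESeq2, which passed 0.667% of genes in this class, gave an adjusted p of 0.0156, and edgeR without naloxone replicate 5 gave 0.0186. In the Drd2 class the levels were 39.8, 35.3 and 42.3 against 45.4, 49.7 and 65.2 CPM (0.48 ± 0.14, adjusted p = 0.143), also without overlap.

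In 2 smaller sets of nuclei every naloxone library was also above every saline library. The Maf-led cluster was enriched in the interneuron genes Pthlh and Kit and in the cholinergic markers Slc5a7 and Lhx8, and stayed unnamed. Its Calcrl stood at 4.76, 6.11 and 3.35 CPM in saline and 15.8, 10.9 and 16.6 in naloxone, on 5, 8 and 4 against 17, 10 and 19 UMIs. It reached the filter on low counts in naloxone libraries alone, so these values are given without a test. The Adamtsl1-led cluster had 25.0 ± 6.57 against 38.3 ± 3.03 CPM (0.57, adjusted p = 0.584). Lower values were fitted in the Ano2-led cluster (log2 -1.44, adjusted p = 0.523) and in Bnc2 GABA neuron-like nuclei (-1.20, adjusted p = 0.464), but the groups overlapped in both. The Ano2-led cluster held 51, 48 and 1 Calcrl UMIs in saline and 14, 9 and 25 in naloxone, so its lower value rests on saline replicates 1 and 2. Apart from the Maf-led cluster, Calcrl had an unadjusted edgeR p under 0.05 in the Drd1, Drd2, Adamtsl1-led, Ano2-led and Bnc2 classes. In all nuclei Calcrl stood at 37.4 ± 1.15 and 39.8 ± 2.41 CPM (adjusted p = 0.630).

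Over the 4 members other than Calcr, 0 of 48 member-by-class tests passed at an adjusted p under 0.05, where 0.187% of all gene-by-class tests did. At an unadjusted p under 0.05 there were 7 of 48 (14.6%), against 8.15% of all gene-by-class tests, and DESeq2 passed 1. Of the 7, 6 were of Calcrl, 4 higher and 2 lower after naloxone, and 1 was of Ramp2, lower. The classes come from the same 6 libraries, so these tests are not independent, and whether the family exceeds the share was not tested. The Maf-led Calcrl test is 1 of the 7, and in the other 47 tests libraries of both groups reached the filter on low counts. Every naloxone library lay above every saline library for Calcrl in 4 of 17 class fits, the Maf-led cluster among them. For Ramp2 this held in 1 of 21 (the Adamtsl1-led cluster), and in none for Ramp1 or Ramp3. Over all genes it held in 6.13% of gene-by-class pairs. None of the 4 passed in all nuclei, where 16 of 17353 genes (0.0922%) did by edgeR and 396 (2.28%) by DESeq2.

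The 3 RAMPs, which carry the receptors to the membrane and set their ligand preference, were thinly counted. Ramp1 had 5810 UMIs in 4959 nuclei (8.43%) and was found in most spiny neuron classes: 28.7 ± 4.70 CPM in the Drd2 class, 26.6 ± 5.42 in eccentric and 25.8 ± 4.42 in Drd1 spiny neuron-like nuclei. These 3 classes did not differ beyond their spread, but the Chst9 Grm8 spiny neuron-like class had 6.21 ± 2.36 CPM, less than oligodendrocyte precursor-like nuclei (20.2). The Drd2 libraries had 29.4, 25.1 and 24.9 CPM in saline and 25.1, 36.7 and 31.1 in naloxone, and overlapped. Interneuron classes had less, with 3.42 ± 2.30 in somatostatin and 1.78 ± 1.71 in cholinergic interneuron-like nuclei.

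Ramp1 was highest in the shallow AABR07000398.1-led cluster (55.3 ± 19.4) and in ependymal-like nuclei (37.7 ± 28.2, on 17 UMIs). Naloxone replicate 5 had the highest Ramp1 of the 6 libraries in all nuclei, 22.9 CPM against 11.7 to 16.2, and it is also the library with the highest mitochondrial share; the part of that in Ramp1 was not tested. No naloxone difference of Ramp1 passed in the 9 class fits that tested it (lowest adjusted p 0.419, Drd2 class, log2 difference 0.26 ± 0.13).

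Ramp2, the adrenomedullin partner of Calcrl, had 6627 UMIs in 5743 nuclei (9.76%) and was highest in endothelial-like nuclei at 174 ± 117 CPM. Every class had some, with 9.86 to 34.2 CPM outside the endothelial-like class. The endothelial libraries had 298, 128 and 329 CPM in saline and 125, 19.2 and 147 in naloxone, on 91 UMIs from 316 nuclei. The groups overlapped, and the fitted log2 difference of -1.16 ± 0.49 did not pass (adjusted p = 0.884). A change of 1 log2 unit would rarely be called in this class: in simulated data 3.0% of such genes were recovered there, against 82.5% in the Drd2 class.

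Ramp3 was rare, with 322 UMIs in 300 nuclei (0.510%). The Maf-led cluster, 1.504% of nuclei, held 28.4% ± 5.61 of them. Its level of 14.1 ± 4.82 CPM (12.4, 7.64 and 19.3 in saline, 14.9, 19.7 and 10.5 in naloxone) was above the next class, the Pde11a-led cluster at 3.86 ± 4.75, in 5 of 6 libraries. Ramp3 overlapped between the groups there (log2 difference 0.19 ± 0.36, adjusted p = 0.938).

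In thinned counts, RAMP RNA was no more frequent in Calcr-positive nuclei than in the others. After thinning to 1000 UMIs per nucleus, 695 Drd2 spiny neuron-like nuclei kept a Calcr UMI and 4519 had none. The second set includes nuclei that held Calcr at full depth, so the sets are not cleanly split. A Ramp1 UMI was seen in 1.59% ± 1.37 of the positive and 2.98% ± 0.948 of the negative nuclei, and was more frequent in the positive ones in 2 of 6 libraries (two-sided exact permutation test that flips the sign of library differences, p = 0.188, adjusted p = 0.281 over 3 RAMPs). For Ramp2 the shares were 1.15% ± 0.927 and 2.33% ± 0.595, higher in the positive nuclei in 1 of 6 libraries (exact permutation p = 0.0938, adjusted p = 0.281). No Ramp3 UMI was left in either set, which allows shares of up to 0.432% and 0.0664%. With 6 libraries the smallest p this test can give is 0.0312.

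The Calcr-rich nuclei differed from Calcr-free nuclei of the same libraries in much more than Calcr. In the Oprd1-led and Lrpl1-led clusters, 704 nuclei with at least 5 Calcr UMIs were set against 3226 with 0 in the same library, a comparison added after the Calcr distribution had been seen. Both kinds occurred in every library (84 to 153 and 309 to 891 nuclei), at median depths of 6365 to 13969 and 7089 to 14874 UMIs. With the library as a block, edgeR passed 1848 of 10105 genes (18.3%), 857 higher (8.48%) and 991 lower (9.81%) in Calcr-rich nuclei. The clusters were pooled and sub-clusters were not held equal, so differences between sub-clusters can enter these calls. How far they do was not tested.

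Calcrl was among the higher genes, at 72.7 ± 27.3 CPM in Calcr-rich and 41.0 ± 7.97 in Calcr-free nuclei (log2 0.78 ± 0.13, adjusted p = 8.26e-05). It was higher in 5 of 6 libraries, and naloxone replicate 4 went the other way, with 39.1 against 46.9 CPM. Ramp2 was lower, 15.02 ± 2.26 against 25.0 ± 4.91 CPM (-0.75 ± 0.15, adjusted p = 6.05e-04), in 6 of 6 libraries. Ramp1 did not pass (23.8 ± 10.0 against 29.9 ± 6.39, adjusted p = 0.0991). Sub-clusters of the Drd2 class differ in these genes too. Ramp2 ran from 6.45 ± 4.17 CPM in the Nr4a3-led to 39.9 ± 10.5 in the Calcr-poor Frem2-led sub-cluster. Calcrl reached 124 ± 25.8 CPM in the Adra1a-led one.

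**Figure D5:**
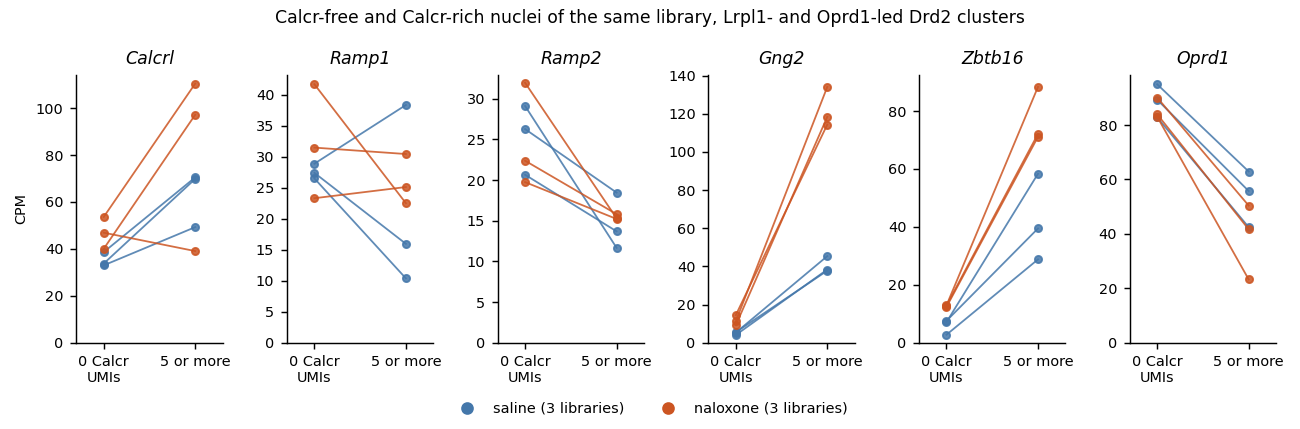
CPM of 6 genes in Calcr-free (0 UMIs) and Calcr-rich (5 or more UMIs) nuclei of the Lrpl1-led and Oprd1-led Drd2 clusters, with a line joining the values of each library. Gng2 and Zbtb16 are higher and Ramp2 and Oprd1 lower in Calcr-rich nuclei in all 6 libraries, and Calcrl is higher in 5.

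Identity genes of the Drd2 class were lower in the Calcr-rich nuclei but still well expressed. Drd2, the dopamine receptor that names the class, stood at 478 ± 48.7 against 592 ± 34.5 CPM (log2 -0.37). Adora2a, the adenosine receptor of these neurons, was at 61.4 ± 11.5 against 92.7 ± 7.38 (-0.66), and Oprd1, the delta opioid receptor, at 46.1 ± 13.8 against 87.4 ± 4.90 (-0.99), each lower in 6 of 6 libraries. Penk, which encodes enkephalin, was also lower (-0.36, adjusted p = 5.28e-04, in 6 of 6 libraries), and so was the orphan receptor gene Gpr6 (-0.48, adjusted p = 0.0496, in 5 of 6).

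Among the 10 strongest genes in each direction, named here after their values were seen, Gng2, a G-protein gamma subunit gene, stood at 81.4 ± 45.4 against 8.24 ± 4.06 CPM (log2 3.24 ± 0.13). The transcription factor gene Zbtb16 was at 59.7 ± 22.2 against 9.23 ± 4.13 (2.62), and Prkg1, the cyclic GMP-dependent kinase gene, at 945 ± 106 against 447 ± 55.7 (1.02). Gng2 was higher in Calcr-rich nuclei of naloxone libraries (114, 134 and 118 CPM) than of saline libraries (38.3, 45.4 and 37.8), and the same held in Calcr-free nuclei, at 14.4, 11.2 and 9.11 against 4.004, 5.24 and 5.45 CPM. Naloxone was not tested in these sets of nuclei, and how many other genes had groups apart in them was not counted. Lower genes included Pde10a, the main striatal phosphodiesterase, at 1177 ± 98.0 against 2391 ± 216 (-1.08), the IP3 receptor gene Itpr1 (-1.61) and the kinase gene Camk4 (-1.24).

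Of 30 tested rows of the Gs, cyclic AMP and protein kinase A pathway into which Calcr signals, 3 were higher and 8 lower in Calcr-rich nuclei, where 8.48% and 9.81% of all genes were, and the median log2 difference was -0.04, against 0.02 over all genes. Gnas, which encodes the Gs alpha subunit, has 2 rows in the files, and both were higher (0.99 and 1.48), as was the regulatory subunit gene Prkar2a (0.48). Adcy5, the main striatal adenylyl cyclase, was lower at 386 against 589 CPM (-0.67), with Adcy9 (-0.82), Adcy3 (-0.55), Pde1b (-0.69), Gnal (-0.20), Rapgef4 (-0.17), Pde4d (-0.13) and Prkar2b (-0.18). How reads were divided between the 2 rows of Gnas is uncertain. Of 3 other secretin-type receptors tested, Pth2r (0.92) and Adcyap1r1 (0.45) were higher and Crhr1 (-1.84) was lower.

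The ligand genes analysed here, which do not include Calcb, had very few UMIs in these nuclei. In all used nuclei Calca, which encodes calcitonin and its gene-related peptide, had 55 UMIs, adrenomedullin (Adm) had 37, Adm2 had 4 and amylin (Iapp) had 2, that is 0.142, 0.101, 0.0109 and 0.00523 CPM, where 3 counts correspond to 0.00807 CPM. The accessory genes were better counted. Crcp, whose product helps the receptors couple, stood at 66.3 ± 3.27 CPM, Gpr107 at 45.4 ± 2.25, and Ackr3, which encodes a decoy receptor for adrenomedullin, at 2.27 ± 0.481, with 21.4 ± 3.51 in oligodendrocyte precursor-like nuclei. None of 58 tests of these ligand and accessory genes passed for naloxone in the 29 class fits, by edgeR (0.187% of all gene-by-class tests did), and 2 had an unadjusted p under 0.05, where 8.15% of all tests did; DESeq2 passed 0.

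Other secretin-type receptors gave 2 calls in 72 naloxone tests, both of Pth2r, and 1 of these is given without its test. In the Chst9 Grm8 class, where 0.234% of genes passed, Pth2r had 7.67, 6.70 and 11.5 CPM in saline and 15.9, 18.2 and 22.6 in naloxone (log2 1.14 ± 0.22, adjusted p = 0.0421). That call was lost without saline replicate 1, 2 or 3 or naloxone replicate 6, or with called doublets kept (adjusted p 0.0511 to 0.221), and DESeq2 passed 0 of the 72. In the Dnah11-led cluster, where 0.160% of genes passed, Pth2r had 9.72, 7.98 and 9.04 CPM against 2.01, 3.17 and 2.23, on 21, 22 and 21 against 4, 9 and 7 UMIs, and reached the filter on low counts in saline libraries alone. The groups were apart in both, where 6.13% of all gene-by-class pairs had every naloxone library higher and 7.78% had every one lower.

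The Gs and protein kinase A pathway gave 1 call in 859 naloxone tests. It was the lower-count row of Gnas in the Drd2 class, where 0.630% of genes passed, with 3.91, 3.82 and 2.86 CPM in saline and 7.68, 6.77 and 7.57 in naloxone (1.08 ± 0.21, adjusted p = 0.0414). That call was lost without saline replicate 1, 2 or 3 or naloxone replicate 4 or 6 (adjusted p 0.0641 to 0.198). DESeq2 passed 2 of the 859, the other row of Gnas in the Drd2 class and Crtc3, a CREB coactivator gene, in astrocyte-like nuclei. In the Calcr-poor Itga11-led Drd2 cluster, where 3.21% of genes passed, the phosphodiesterase gene Pde4a had 69.5, 75.7 and 76.5 CPM against 144, 127 and 128 (0.87 ± 0.17, adjusted p = 0.00395). In the Drd2 class the 34 tested pathway genes had a median log2 difference of -0.06, against 0.00295 over all genes. For sex, no gene of the 3 lists passed by edgeR in the 18 class fits, and 0 of 32 ligand and accessory, 2 of 40 secretin-type and 28 of 497 pathway tests had an unadjusted p under 0.05, where 4.98% of all tests did.

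Across the 32 classes, each member's pattern was compared with that of other genes by Pearson's r of log2(CPM + 1), as a description in which classes share libraries and depth. Calcr was most like Dlk1 (0.714) and Sdcbp2 (0.713). Calcrl was most like Bcl7b (0.80), Gnb4 (0.798) and Ets1 (0.790), and Ramp1 most like Ppp1r1b (0.858), the spiny neuron gene for DARPP-32, and Cbr3 (0.828) among genes with a symbol. Ramp2 was most like Cldn5 (0.797), a tight junction gene of brain endothelium, Ifnar1 (0.794) and Tnfrsf11b (0.792), and Ramp3 like Cps1 (0.793), Pthlh (0.761) and Chrna3 (0.745).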

How the data were processed

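Nuclei from 6 libraries were analysed from the UMI count matrices that the authors deposited, whole numbers per gene and barcode that are not normalized. The submitters' processing notes name Cell Ranger 9.0.1, Seurat 5.2.1, R 4.4.0 and the build mRatBN7.2; whether intronic reads were counted is not given in the sources used here. Barcodes were kept with 500 or more genes and a mitochondrial share up to 5%, and doublets (4.48% of these) were called by similarity to simulated pairs and removed. Clustering (3000 variable genes, 40 components, Leiden resolution 1) left out the 5 members, the gene lists and sex-linked genes. A cluster was named when at least 3 markers of a class were enriched, for a neuron class with its first marker (Drd2, Drd1 and so on) among them, and its leading genes did not belong to another class.

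UMIs were summed per library and class. CPM is UMIs per 1000000 UMIs of that sum. Groups were compared with edgeR 4.0.16 (quasi-likelihood test, TMM factors, filterByExpr) on all genes, for classes that had 20 or more nuclei per library, with Benjamini-Hochberg adjustment over all genes of the fit and a threshold of 0.05; DESeq2 1.42.0 was run beside it. Female and male nuclei were compared with the library as a block. Some fits were tested on simulated data: for a change of 1 log2 unit, 76.5% of 200 changed genes were recovered for naloxone in all nuclei (17199 genes), 82.5% in the Drd2 class (12400 genes), 73.0% in oligodendrocyte precursor-like nuclei (9490 genes) and 3.0% in endothelial-like nuclei (2293 genes), 88.0% for sex in all nuclei (15566 genes) and 90.5% for Calcr-rich against Calcr-free nuclei (9964 genes). The other fits were not simulated. Limits for counts of 0 are 3 counts and cover counting error only.

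The members and lists were chosen with earlier results of these data known. Genes named are the 5 members, genes of the lists that passed, and for each member the 3 genes most like it across classes with at least 10 CPM in 1 class; Ensembl IDs without a symbol are not named. Class markers, leading genes of clusters and some genes of the comparison of Calcr-rich with Calcr-free nuclei are named beside these, the last chosen after their values were seen. The lists hold the family's ligands and accessory genes, other secretin-type receptors, and the Gs, cyclic AMP and protein kinase A pathway; 8 list or marker symbols, Calcb among them, are not analysed here. Alternatives were other size factors, no filter, at least 1000 genes per nucleus, doublets kept, 1 more marker, and each library left out.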

Additional observations from a re-analysis of the deposited data

Results flagged for a closer look

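Pth2r, which encodes a parathyroid hormone family receptor of the secretin type, had opposite naloxone differences in 2 sets of neurons. Its fitted log2 difference was 1.14 in Chst9 Grm8 spiny neuron-like nuclei and -1.80 in the Dnah11-led cluster, and in each every naloxone library lay beyond every saline library. In the second set it reached the filter on low counts in saline libraries alone, with 4 to 9 UMIs per naloxone library, so no test of it is used. It was singled out because the libraries of the 2 sets lay on opposite sides; the difference between them was not tested. Of the alternative fits that gave an adjusted p in the first set, 6 of 11 passed.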

How the results depend on the processing

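No paired analysis was possible because the groups share no replicate numbers: saline libraries are numbered 1 to 3 and naloxone libraries 4 to 6. The count of genes passing for naloxone in all nuclei, 16, depended strongly on the fit: 44 without the filter on low counts, 0 with at least 1000 genes per nucleus, 396 by DESeq2, and 0 to 260 with 1 library left out (260 without naloxone replicate 5). Member-by-class tests passing for naloxone were 0, and 4 without the filter, 1 by DESeq2 and 0 to 1 with a library left out, the 1 being Calcrl in the Drd1 class without naloxone replicate 5. The 4 without the filter included Calcrl in the Drd1 and Drd2 classes and, as a lower value, in the Ano2-led cluster, where the groups overlapped. For sex they were 0, and 3 without the filter and 0 to 1 with a library left out. The Calcr difference in the Drd2 class, 1.06 on the log2 scale, was 0.45 without nuclei of 20 or more Calcr UMIs, 0.75 with counts limited to 20 and 0.86 in female nuclei, alternatives chosen after seeing the data, and 0.96 to 1.12 with a library left out. Genes passing between Calcr-rich and Calcr-free nuclei numbered 1529 to 1691 with a library left out, and 1463 to 1592 of them were shared with the full comparison. The Ramp1 and Ramp2 differences between Calcr-positive and Calcr-negative nuclei stayed negative under every alternative run, and none passed. With 1 library left out they ran from -1.88 to -0.907 percentage points for Ramp1 and from -1.52 to -0.813 for Ramp2. The smallest p the exact permutation test can give with 5 libraries is 0.0625, so those runs could not pass. The levels of Calcr and Ramp1 in the Drd2 class and of Ramp3 in the Maf-led cluster stayed within the spread under every alternative run. Those of Calcrl in oligodendrocyte precursor-like and Ramp2 in endothelial-like nuclei did too. Levels in other classes were not compared in this way. The call of Gnas in the Drd2 class held in 5 of 11 alternatives and that of Pde4a in 9 of 9. Depth limits Ramp3 throughout and all members in vessel classes. The causes were not tested.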
